A study of Mus musculus with 10 samples.

Results

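The proteasome genes of this table were the rows whose symbol starts with Psm, followed by a letter from a to g and a number, without the immunoproteasome subunits Psmb8, Psmb9 and Psmb10. These were 46 of the 10767 genes listed. The 46 genes fell into 8 alpha and 7 beta subunits of the core, 9 subunits of the base, 8 of the lid, 6 activators and regulators of the core and 7 assembly factors. Psmc3ip, a meiotic recombination factor, was caught by the rule because of its symbol and is the remaining gene. It is in no group, but counts over the 46 genes include it, as do those of upstream sequences and recovered reads. The thymic beta subunit Psmb11 was the only gene of the subunit list without a row.

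The proteasome is the barrel-shaped protease that degrades proteins tagged with ubiquitin. Its core is built of rings of alpha subunits, which gate the channel, and rings of beta subunits, of which Psmb5, Psmb6 and Psmb7 carry the active sites. A cap made of a base with ATPases (Psmc genes) and a lid (Psmd genes) binds ubiquitin chains, removes them and unfolds the substrate. In antigen-presenting cells, peptides from the proteasome are loaded on MHC class I, and interferon gamma induces Psmb8, Psmb9 and Psmb10 as well as the activator subunits Psme1 and Psme2.

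Messenger RNA was sequenced from CD8+ DCs of the spleen, sorted as CD11c+ MHCII+ CD8+ CD11b- cells. There were 5 libraries of Ppef2+/+ and 5 of Ppef2-/- mice, 1 of each genotype in each of 5 sorts, and each library was made from 3 pooled mice aged 8 to 13 weeks. Ppef2-/- mice carry a knockout-first gene trap in the Ppef2 gene, made in JM8A3.N1 embryonic stem cells and crossed with C57BL/6. The trap is not restricted to DCs, and the labels name no treatment. The study compared the genotypes to find genes that depend on the phosphatase Ppef2.

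Values are normalized counts. In 10721 genes without a value at the floor of 1, including all 46 proteasome genes, both libraries of a sort added up to the same sum in every sort, within 6.3e-06 of that sum. The mean of each sort had thus been taken off. The Ppef2-/- values of these genes mirror the Ppef2+/+ values, and both genotypes have the same SD. For 43 proteasome genes whole reads could be calculated back, which gives levels with the sort means put back. Psmd2, Psme1 and Psme2 reach 1000 normalized counts and were not calculated back. The 9580 genes resolved held 1395386 to 2271840 reads in Ppef2+/+ and 1506652 to 4405962 in Ppef2-/- libraries. The Ppef2-/- library had 2.92, 2.31, 1.60, 0.885 and 0.730 times the reads of its Ppef2+/+ partner in sorts 1 to 5. Ppef2 itself ranged from 162 to 243 normalized counts in Ppef2+/+ and from 1, which is the floor, to 36.7 in Ppef2-/-, where the sort means taken off also enter the value. All 12 cDC1 markers looked up were present, among them Xcr1 and Clec9a. In this bulk RNA, fewer cells of a type and less RNA per cell cannot be told apart.

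Sequences just upstream of the start are shown for 3 beta subunits: Psmb5 and Psmb6 as catalytic subunits with the core of an antioxidant response element, the kind of site that Nfe2l1 and Nfe2l2 recognise in proteasome genes, and Psmb3 as the proteasome gene with the smallest p. Windows are the 250 bases before the start in RefSeq on GRCm38.p6, for 38 of the 46 genes that matched by symbol. Capitals mark the antioxidant response element core (TGACNNNGC), the CCAAT box (CCAAT) and an interferon response core (GAAANNGAA), searched on both strands. Other motifs are not marked.
Psmb5, minus strand, chr14:54617996-54618245: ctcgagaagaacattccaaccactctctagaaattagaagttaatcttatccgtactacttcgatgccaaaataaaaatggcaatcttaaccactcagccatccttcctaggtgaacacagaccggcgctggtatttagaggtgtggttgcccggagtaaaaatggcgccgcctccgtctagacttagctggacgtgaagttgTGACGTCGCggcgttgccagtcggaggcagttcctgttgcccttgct
Psmb6, plus strand, chr11:70525107-70525356: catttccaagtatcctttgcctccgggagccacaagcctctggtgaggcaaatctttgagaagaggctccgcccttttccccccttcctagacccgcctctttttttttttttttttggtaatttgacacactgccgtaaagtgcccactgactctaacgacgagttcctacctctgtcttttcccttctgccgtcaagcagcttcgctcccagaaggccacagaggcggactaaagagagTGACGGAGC
Psmb3, plus strand, chr11:97703184-97703433: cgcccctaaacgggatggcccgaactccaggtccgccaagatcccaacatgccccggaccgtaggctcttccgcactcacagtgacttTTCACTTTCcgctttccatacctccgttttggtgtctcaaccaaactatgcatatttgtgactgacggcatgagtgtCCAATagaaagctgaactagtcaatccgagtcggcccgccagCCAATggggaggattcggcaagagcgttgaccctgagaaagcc
The core of the antioxidant response element began 47 bases before the start in Psmb5 and 9 bases before it in Psmb6. The match in Psmb5 also holds TGACGT, with which a cyclic AMP response element begins. Of the 38 proteasome genes with a window, 5 held TGACNNNGC (13.2%, compared to 14.2% of 8311 genes in the table with a window), namely Psmb5, Psmb6, Psmc6, Psmd9 and Psmd12. CCAAT was found in 13 of them (34.2%, compared to 40.8%) and GAAANNGAA in 3 (7.89%, compared to 7.87%). The ETS site CGGAAGT was found in 9 (23.7%, compared to 12.6%), the GC box GGGCGG in 21 (55.3%, compared to 64.7%) and the TATA box TATAAA in 3 (7.89%, compared to 7.14%). A match of letters does not show that a factor binds there.

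Most proteasome genes had levels above the median gene of the table. Levels between genes are given as the mean normalized count of all 10 libraries per kb of annotated exon (GENCODE M21). The median was 242 per kb over the 46 genes and 53.1 per kb over 10392 genes with a length, and 39 of the 46 were above the latter. Group medians were 464 per kb for beta subunits, 373 for alpha subunits, 334 for activators and regulators, 243 for the base, 198 for the lid and 45.9 for assembly factors.

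Within the core, base and lid, levels per kb spanned 2.36-fold (base) to 3.40-fold (lid), with Psma8 left out. The 7 beta subunits ranged from 240.5 per kb (Psmb1) to 634 (Psmb4), a 2.64-fold range. The place of Psmb1 depended on the length used: per kb of the longest transcript it had 418, above Psmb5 (392) and Psmb3 (410.2), and the range of the beta subunits was 1.62-fold. Among the alpha subunits, Psma7 was highest with 583 per kb and Psma2 was the lowest apart from Psma8 with 179. Psma8, which replaces Psma7 in male germ cells, had only 5.32 per kb and a mean of 9.01 normalized counts, with 1 to 22 reads per library. The base ranged from 153 per kb for the ATPase Psmc6 to 362 for Psmd2, the scaffold that binds ubiquitin-like domains. The lid ranged from 85.1 per kb (Psmd11) to 289.8 (Psmd14, the deubiquitinase of the lid), while Psmd8 was the highest of the lid per kb of the longest transcript (312).

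The highest levels were those of the activator PA28. Psme1, chr14:55578360-55581528 on the plus strand, encodes its alpha subunit and had 2252 per kb, which was above 98.7% of genes. Psme2, its beta partner, chr14:55587441-55591101 on the minus strand, had 1077 per kb. The nuclear activator Psme3 had 272 per kb, Psme4 (PA200) 87.2, and Psmf1, an inhibitor of the core, 43.0. Psme2b is a copy of Psme2 in 1 exon, of which 789 of 794 aligned bases are identical, so its 396 per kb may hold reads of Psme2. The assembly factors ranged from 24.9 per kb (Psmd9) to 154 (Psmg4).

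**Figure D1:**
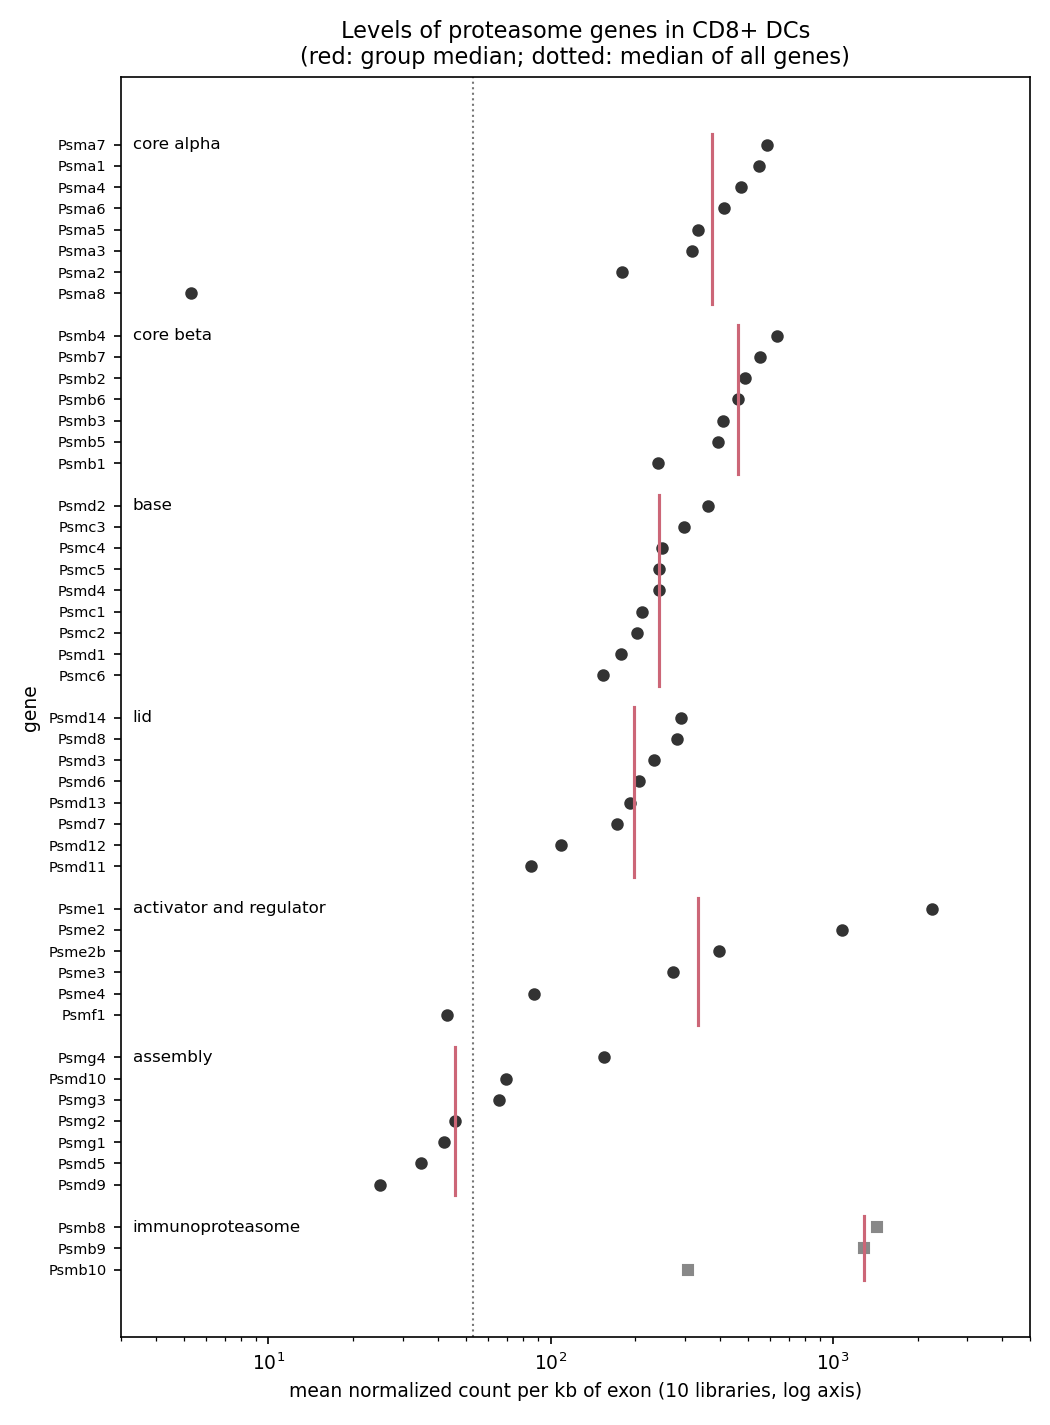
Mean normalized count per kb of exon over 10 libraries (log axis) for 45 proteasome genes by structural group and, as squares, for the 3 immunoproteasome subunits. Red lines are group medians and the dotted line is the median of all genes with a length (53.1 per kb). Psme1 (2252 per kb) and Psme2 (1077 per kb) are the highest of the 45, and Psma8 (5.32 per kb) is the lowest.

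The catalytic subunits were compared with the immunoproteasome subunits that take their places. Psmb8 had 3.66 times the level per kb of Psmb5 (chymotrypsin-like activity), Psmb9 had 2.78 times that of Psmb6 (caspase-like activity), and Psmb10 had 0.556 times that of Psmb7 (trypsin-like activity). Over the 10 libraries these ratios ranged from 3.47 to 3.86, from 2.47 to 3.12 and from 0.499 to 0.615. In these values the order of each pair was the same in every library. The sort means had been taken off, so the spread between sorts is missing from these ranges and from the SDs of the ratios. Psmb8 and Psmb9 were not calculated back. With the sort means put back, Psmb10 and Psmb7 had 338 and 693 normalized counts in Ppef2+/+ of sort 2. They had 409 and 571 in Ppef2-/- of sort 5. The ratio of Psmb9 to Psmb6 was 2.69 ± 0.137 in Ppef2+/+ and 2.88 ± 0.149 in Ppef2-/- (mean ± SD, n = 5; exact permutation p = 0.0476, adjusted over 3 ratios 0.143, exact test within sorts p = 0.25). The permutation test treats the libraries as unpaired although the counts of a sort mirror each other, and only the test within sorts keeps the pairs. For Psmb8 to Psmb5 the ratio was 3.66 in both genotypes. Exons of Psmb7 share 405 bp with Nek6 and those of Psmb9 share 212 bp with Tap1 on the opposite strand, and reads of an overlap cannot be told apart. Other overlaps of over 100 bp were Psmb8 with Gm20496 (186 bp, opposite strand), Psmc3ip with Mlx (385 bp), Psmd1 with Gm21972 (301 bp), Psmg3 with Gm26938 (237 bp), Psmd13 with Sirt3 (152 bp), Psma4 with AY074887 (114 bp) and Psmb5 with Mir686 (109 bp).

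No proteasome gene passed an adjusted p under 0.05 between the genotypes. In limma without a term for the sort, 0 of 46 passed, while 0.957% of all genes did, and with the sort as a block 0 of 46 passed, while 0.00929% of all genes (1 gene) did. At an unadjusted p under 0.05, 2 of 46 (Psmb3 and Psme2, both higher in Ppef2-/-) passed without the block, compared to 17.5% of all genes. With the block 1 of 46 (Psmb3) did, compared to 4.29%. Limma's voom on whole reads with the block also called 0 of 43, compared to 0.0104% of 9580 genes (1 gene), with 1 of 43 at an unadjusted p under 0.05 (2.33%, compared to 4.57%).

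The log2 fold change of Ppef2-/- against Ppef2+/+, taken on log2(normalized count + 1), had a median of 0.01 over the 46 genes and 0.00 over all genes. It was above 0 in 27 and below 0 in 19, and within 0.1 of 0 in 38. The middle 50% of proteasome genes spanned 0.0721, compared to 0.142 for all genes. For the 31 subunits of core, base and lid without Psma8, all 95% intervals with the sort as a block lay between -0.27 (Psmb6) and 0.33 (Psmb3). These are the outermost bounds, and intervals of single genes were narrower, such as -0.10 to 0.12 for Psmd2. With 5 libraries per genotype, differences inside a gene's own interval are not excluded. For assembly factors, which have fewer reads, the intervals reached from -0.44 (Psmg3) to 0.71 (Psmg2). Group medians of the log2 fold change were 0.05 for activators and regulators, 0.01 for assembly factors, 0.01 for the base, 0.00 for the lid, -0.02 for beta and -0.03 for alpha subunits. All 6 activators and regulators had values above 0 and 8 of 9 genes of the base did, with none of them at an adjusted p under 0.05.

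**Figure D2:**
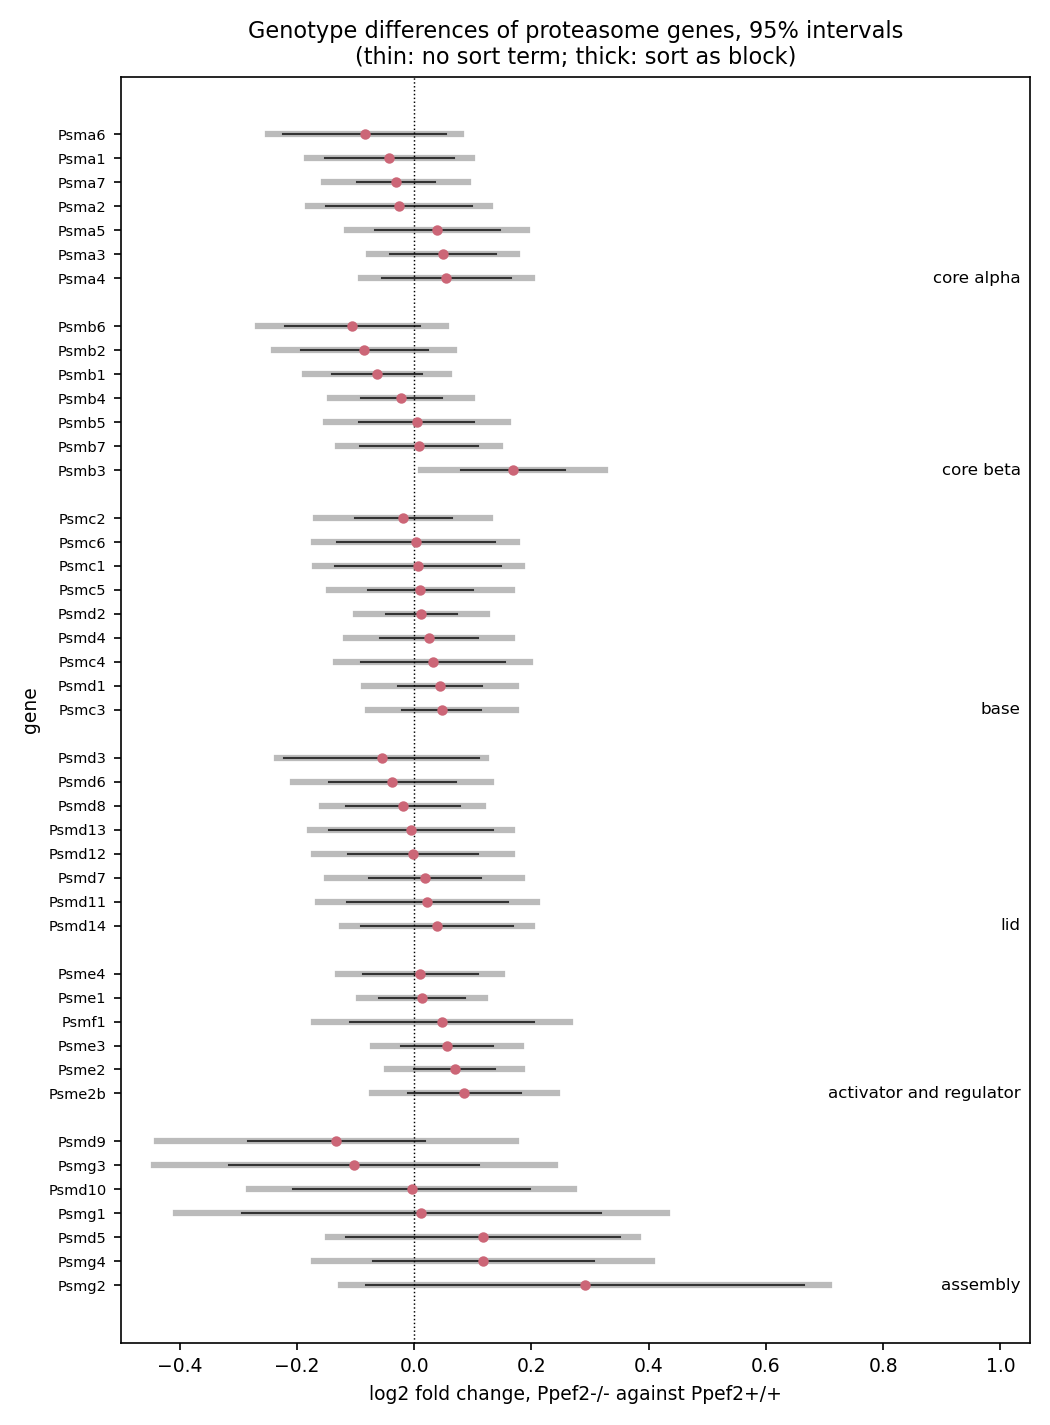
Log2 fold change of Ppef2-/- against Ppef2+/+ for 44 proteasome genes by structural group, without Psma8 and Psmc3ip. Thin lines are 95% intervals of the fit without a sort term and thick lines those with the sort as a block. The block interval of Psmb3 lies above 0 and those of the other 43 genes include 0.

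Psmb3, a beta subunit without an active site (chr11:97703399-97713500, plus strand), had the smallest p. In the order of sorts 1 to 5, which is kept for all genes, Ppef2+/+ had 285, 283, 305, 311 and 295 normalized counts. Ppef2-/- had 343, 345, 324, 318 and 333. The Ppef2-/- library was the higher one in 5 of 5 sorts and the genotypes did not overlap. The log2 fold change was 0.17 with an SE of 0.0408 without the block (limma, adjusted p = 0.0724) and an SE of 0.0750 with it (adjusted p = 0.995). With the sort means put back, the genotypes did overlap, with 296 ± 23.5 in Ppef2+/+ and 333 ± 29.7 in Ppef2-/- (mean ± SD, n = 5; exact permutation p = 0.0635). Within sorts the exact p was 0.0625, the smallest that 5 pairs allow.

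With mirrored values, genotypes do not overlap exactly when all 5 sorts go one way. Psmb3 was the only proteasome gene higher in Ppef2-/- in 5 of 5 sorts, compared to 3.26% of all genes. Psmd9, a chaperone of base assembly (chr5:123228190-123250131, plus strand), was the only one lower in 5 of 5 sorts, compared to 2.92% of all genes. Each is 2.17% of the 46. Psmd9 had 72.7, 65.5, 68.4, 66.9 and 65.1 normalized counts in Ppef2+/+ and 56.7, 63.9, 61.0, 62.5 and 64.3 in Ppef2-/-. The distance in sort 5 was 1 count only, and the log2 fold change of -0.13 had an adjusted p of 0.354 without and 0.995 with the block in limma. Without both libraries of sort 1 it was -0.08.

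Of the catalytic subunits, none passed the test. Psmb5 (chr14:54614119-54618022, minus strand) had 366, 345, 326, 356 and 367 normalized counts in Ppef2+/+ and 339, 360.5, 379, 349 and 338 in Ppef2-/-. Psmb7 (chr2:38588036-38644087, minus strand) had 618, 648, 635, 596 and 689.9 in Ppef2+/+ and 661, 630.4, 644, 682 and 589 in Ppef2-/-. In both genes the genotypes overlapped, and the log2 fold changes were 0.00 and 0.01. Psmb6 (chr11:70525386-70527649, plus strand) had 379, 396, 386, 348 and 409 in Ppef2+/+ and 361, 344, 355, 393 and 331 in Ppef2-/-. Its Ppef2-/- library was the lower one in all sorts but sort 4, with a log2 fold change of -0.11 and an adjusted p of 0.330 without and 0.995 with the block (limma). It was -0.06 without both libraries of sort 5 and -0.18 without those of sort 4. The 5 genes with TGACNNNGC upstream had log2 fold changes of 0.00 (Psmb5), -0.11 (Psmb6), 0.00 (Psmc6), -0.13 (Psmd9) and 0.00 (Psmd12).

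**Figure D3:**
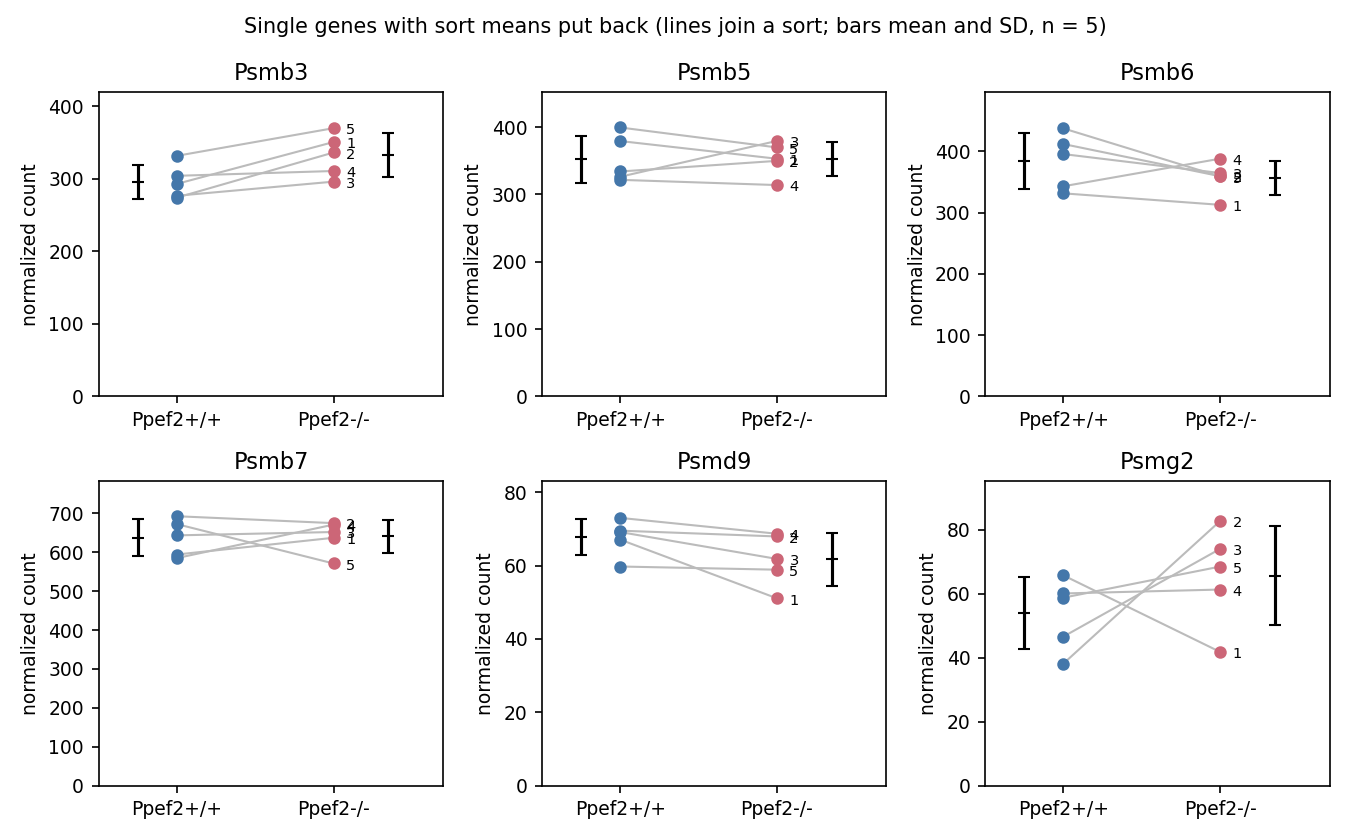
Normalized counts with sort means put back for Psmb3, Psmb5, Psmb6, Psmb7, Psmd9 and Psmg2 in each Ppef2+/+ and Ppef2-/- library (axes from 0). Lines join the libraries of a sort, numbers name the sort, and bars show mean and SD (n = 5). The lines of Psmb3 go up in all 5 sorts and those of Psmd9 go down, and the genotypes overlap in all 6 genes.

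The activators did not pass the adjusted test either. Psme1 had 2536, 2542, 2571, 2329 and 2487 normalized counts in Ppef2+/+ and 2473, 2467, 2438, 2679 and 2521 in Ppef2-/-. Psme2 had 1060.0, 1018, 991, 998 and 1062 in Ppef2+/+ and 1042, 1084, 1111, 1104 and 1039.9 in Ppef2-/-. Psme1 was the higher one in Ppef2-/- in 2 of 5 sorts and Psme2 in 3 of 5. The log2 fold change of Psme2 was 0.07 with an adjusted p of 0.282 without and 0.995 with the block (limma). Its copy Psme2b had 327, 319, 345, 306 and 311 in Ppef2+/+ and 336, 344, 318, 357 and 353 in Ppef2-/-, with a log2 fold change of 0.09 and an adjusted p of 0.351. Psme3 had 753, 683, 703, 724 and 692 in Ppef2+/+ and 697, 767, 747, 726 and 758 in Ppef2-/-. Psme4 had 545, 562, 614, 538 and 562 in Ppef2+/+ and 588, 571, 518, 594 and 570.2 in Ppef2-/-. Both were higher in Ppef2-/- in 4 of 5 sorts, by log2 fold changes of 0.06 and 0.01 that did not pass the test.

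The 2 log2 fold changes furthest from 0 belonged to genes with means under 100 normalized counts. Psma8 had 9.37, 11.1, 6.96, 10.5 and 16.8 normalized counts in Ppef2+/+ and 8.64, 6.89, 11.1, 7.49 and 1.23 in Ppef2-/-. Its log2 fold change of -0.71 had an adjusted p of 0.391, and in sort 5 it rested on 17 reads in Ppef2+/+ and 1 read in Ppef2-/-. Without the Ppef2-/- library of sort 5 it was -0.30, and with a pseudocount of 10 it was -0.31. Psmg2, which helps to build the alpha ring, had 71.7, 37.5, 46.1, 59.1 and 54.9 in Ppef2+/+ and 47.8, 82.0, 73.5, 60.4 and 64.6 in Ppef2-/-. It was higher in Ppef2-/- in 4 of 5 sorts, with a log2 fold change of 0.29 and an adjusted p of 0.417 (limma, no block). Without the Ppef2+/+ library of sort 2 it was 0.17, and over all libraries left out in turn it ran up to 0.40. Psmc3ip had a mean of 14.1 normalized counts and a log2 fold change of -0.08.

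The remaining genes at the top or bottom of a group's levels had log2 fold changes between -0.06 (Psmb1) and 0.12 (Psmg4). Psma7, the highest alpha subunit, had 715, 681, 669.9, 707 and 703 normalized counts in Ppef2+/+ and 661, 695, 706, 669 and 673 in Ppef2-/-. Psmb4, the highest beta subunit, had 740.4, 767, 728, 758 and 785 normalized counts in Ppef2+/+ and 759, 733, 772, 742 and 715 in Ppef2-/-. Psmb1, the lowest beta subunit per kb of all exons but the highest by mean count (824), had 892, 807, 829, 837 and 845 normalized counts in Ppef2+/+ and 756, 841, 819, 811 and 803 in Ppef2-/-. In these core subunits the genotypes overlapped, and the adjusted p was 0.657, 0.771 and 0.388 (limma, no block). Psmd2, the scaffold of the base, had 1093, 1076, 1033, 1043 and 1085 normalized counts in Ppef2+/+ and 1048, 1065, 1108, 1098 and 1056 in Ppef2-/-. Psmc6, its lowest ATPase, had 335, 356, 336, 306 and 376 normalized counts in Ppef2+/+ and 349, 328, 348, 378 and 308 in Ppef2-/-. Both overlapped, and the log2 fold changes were 0.01 and 0.00. Psmd14, the deubiquitinase, had 452, 436, 458, 385 and 471 normalized counts in Ppef2+/+ and 441, 457, 435, 508 and 422 in Ppef2-/-. Psmd11, the lowest subunit of the lid, had 245, 232, 280.0, 237 and 257 normalized counts in Ppef2+/+ and 259.8, 273, 225, 267 and 247 in Ppef2-/-. Values of the genotypes overlapped here as well. Psmf1, the inhibitor of the core, had 170.0, 155, 175, 154 and 189.5 normalized counts in Ppef2+/+ and 173, 188, 168, 189 and 154 in Ppef2-/-. Psmg4, a chaperone of the alpha ring, had 81.4, 93.0, 73.6, 74.9 and 87.4 normalized counts in Ppef2+/+ and 89.8, 78.1, 97.6, 96.2 and 83.8 in Ppef2-/-. These genes overlapped between the genotypes, and their adjusted p was 0.782 and 0.519.

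Within single sorts, the median of the proteasome genes lay close to 0 in sorts 1 to 3, above 0 in sort 4 and below 0 in sort 5. The median within-sort log2 difference (Ppef2-/- minus Ppef2+/+) of the 46 genes was 0.00, -0.01, 0.02, 0.14 and -0.09 in sorts 1 to 5. Over all genes it was 0.00, -0.01, 0.00, 0.01 and 0.00. The Ppef2-/- library was the higher one for 25, 21, 25, 34 and 11 of the 46 genes, which is 54.3, 45.7, 54.3, 73.9 and 23.9%, compared to 49.6, 49.0, 50.2, 52.3 and 50.2% of all genes. In percent of the gene's mean, the median difference was 9.98% in sort 4 and -6.39% in sort 5. The sign of the median over the 46 genes thus depended on the sort: the median log2 fold change of 0.01 became -0.02 without both libraries of sort 4 and 0.04 without those of sort 5.

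By structural group, in sort 4 the Ppef2-/- library was the higher one for 6 of 8 alpha subunits, 4 of 7 beta subunits, 7 of 9 genes of the base, 6 of 8 of the lid, all 6 activators and regulators and 4 of 7 assembly factors. In sort 5 it was the higher one for 1 of 8 alpha subunits, 1 of 7 beta subunits, 2 of 9 of the base, 0 of 8 of the lid, 4 of 6 activators and regulators and 3 of 7 assembly factors. Group medians in sort 4 were 0.15 for alpha subunits, 0.03 for beta subunits, 0.10 for the base, 0.13 for the lid, 0.17 for activators and regulators and 0.03 for assembly factors. In sort 5 they were -0.22 for alpha subunits, -0.12 for beta subunits, -0.06 for the base, -0.14 for the lid, 0.02 for activators and regulators and -0.02 for assembly factors. Assembly factors had medians of -0.32, -0.03 and 0.40 in sorts 1 to 3, further from 0 in sorts 1 and 3 than in sorts 4 and 5, and their 7 means lay between 43.9 and 152 normalized counts. In all, 25 of 46 genes (54.3%) were higher in Ppef2-/- in sort 4 and lower in sort 5, compared to 28.3% of all genes. The reverse was seen in 2 (4.35%), compared to 26.2%. These 2 sorts were picked after their values were seen, and no test is given.

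**Figure D4:**
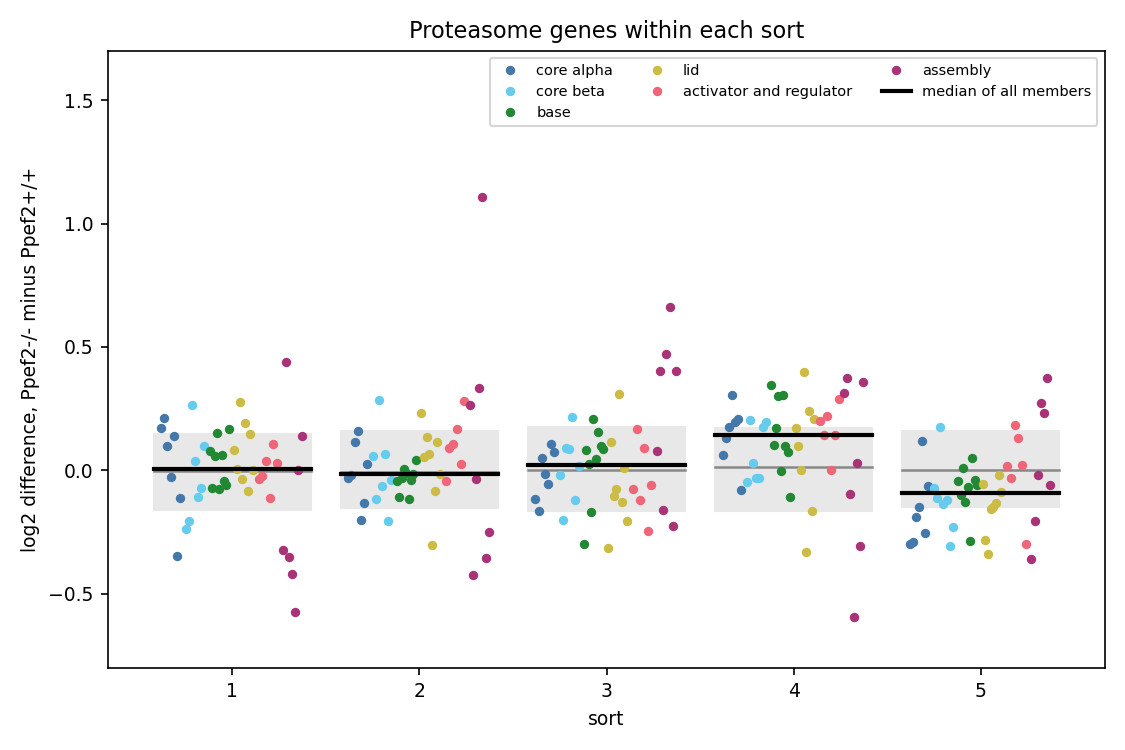
Within-sort log2 difference (Ppef2-/- minus Ppef2+/+) of 44 proteasome genes, without Psma8 and Psmc3ip, coloured by structural group. Black lines are medians of all 46 genes (0.14 in sort 4 and -0.09 in sort 5), grey lines are medians and grey boxes the middle 50% of all genes. Points lie mostly above 0 in sort 4 and mostly below 0 in sort 5.

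Psmd14, Psma4 and Psmc6, chosen after their values were seen, give examples of the levels in sorts 4 and 5. With the sort means put back, Psmd14 had 403 normalized counts in Ppef2+/+ and 525 in Ppef2-/- in sort 4, and 484 and 435 in sort 5. The alpha subunit Psma4 had 508 and 625 in sort 4, and 581 and 523 in sort 5. The ATPase Psmc6 had 319.8 and 392 in sort 4, and 356 and 288 in sort 5. Putting the sort means back does not change the sign of a difference within a sort, so the direction in these genes only repeats their choice. Other genes went the other way, such as Psmd3 with 586 in Ppef2+/+ and 472 in Ppef2-/- in sort 4.

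The 43 resolved proteasome genes were also counted as a share of the reads of all resolved genes. In sort 4 it was 0.770% in Ppef2+/+ (17494 reads, 95% exact Clopper-Pearson interval 0.759 to 0.781%) and 0.818% in Ppef2-/- (16459 reads, 0.806 to 0.831%). In sort 5 it was 0.846% in Ppef2+/+ (17451 reads, 0.833 to 0.858%) and 0.782% in Ppef2-/- (11783 reads, 0.768 to 0.796%). These intervals cover counting error only and not the spread between libraries, as each sort had 1 library per genotype. Within sorts 4 and 5, which were picked after their values were seen, they did not overlap. In sorts 1 to 3 the shares were 0.782, 0.809 and 0.800% in Ppef2+/+ and 0.799, 0.811 and 0.801% in Ppef2-/-, with overlapping intervals. Over all sorts, the share was 0.801 ± 0.0290% in Ppef2+/+ and 0.802 ± 0.0137% in Ppef2-/- (mean ± SD, n = 5; exact permutation p = 0.929, two-sided, sorts not paired). Within sorts, the share was higher in Ppef2-/- in 4 of 5.

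**Figure D5:**
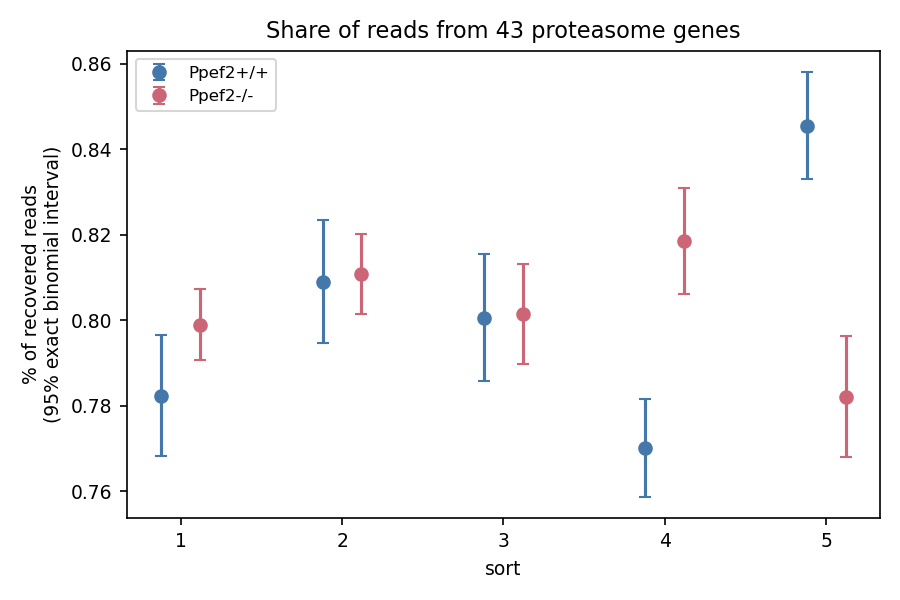
Share of recovered reads (percent) from 43 proteasome genes in each library, by sort, with 95% exact binomial intervals. The y axis does not start at 0. Shares run from 0.770% to 0.846%. The intervals, which cover counting error only, do not overlap in sorts 4 and 5, where the shares differ in opposite directions.

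Other values moved in these sorts as well. Of the 46 proteasome genes, 42 are in the shorter set when 10392 genes are split at the median exon length of 3332.5 bp, and the medians of shorter and longer genes were 0.02 and 0.01 in sort 4 and -0.04 and 0.03 in sort 5. The summed level of 4 cDC2 markers (Sirpa, Itgam, Clec4a4 and Esam, all present), which ranged from 316 to 533 in Ppef2+/+ and from 341 to 558 in Ppef2-/-, was lower by 192 in the Ppef2-/- library of sort 4 and higher by 242 in that of sort 5. Sirpa made up most of both differences (-162 and 215), while Clec4a4 was higher by 5.16 in sort 4 and Itgam was lower in sort 5 (-4.60). Cd4 was the only 1 of 5 listed T cell markers with a row. The paper also counts CD4 among the markers of cDC2, so its level cannot be assigned to T cells. Cd4 was lower by 81.7 in the Ppef2-/- library of sort 4 and higher by 53.9 in that of sort 5. Its range was 170.2 to 238 in Ppef2+/+ and 156 to 224 in Ppef2-/-. The sum of 6 maturation markers, all present, was lower by 418 in sort 4 and higher by 901 in sort 5, with a range of 4773 to 5531 in Ppef2+/+ and 4916 to 5673 in Ppef2-/-. This sum was also lower by 615 in sort 1, where the median of proteasome genes was 0.00. In sort 4 Fscn1 (-394), Ccr7 (-169.6) and Relb (-127) were lower, while Cd86 (218), Cd40 (47.5) and Cd80 (6.86) were higher in Ppef2-/-. In sort 5 Fscn1 (407), Ccr7 (313), Relb (185), Cd40 (28.9) and Cd80 (15.8) were higher, while Cd86 (-49.0) was lower. Sums of the other marker lists also differed (Ppef2-/- minus Ppef2+/+ in sorts 4 and 5). They were 899 and -2823 for cDC1, 16.7 and -21.5 for B cells and 10.9 and -89.2 for erythroid cells. For plasmacytoid DCs they were -91.1 and -234, and for macrophages and monocytes -43.8 and -216. The neutrophil gene S100a9 had -2.24 and -14.2. Some markers went against the sum of their list. In sort 4, Bst2 and Ccr9 (plasmacytoid DCs) and Adgre1, Lyz2 and C1qa (macrophages and monocytes) were higher in Ppef2-/-. Irf8, Batf3, Naaa, Flt3 and Zbtb46 (cDC1) and Hbb-b1 and Hbb-bs (erythroid cells) were lower. In sort 5, Csf1r, Itgax, Flt3, Batf3 and Zbtb46 were higher. The B cell gene Cd79b went against its sum in both sorts. The sum for plasmacytoid DCs was lower in sorts 1 to 3 as well (-34.3, -158 and -37.0). Of its markers, Tcf4 was lower in Ppef2-/- in 5 of 5 sorts, with a log2 fold change of -0.31. Its adjusted p was 0.0182 without and 0.711 with the block (limma). Siglech was also lower in 5 of 5 sorts, while Bst2 was higher in 3 and Ccr9 in 2. The part of all these values in the shift of proteasome genes was not tested.

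Genes that act with the proteasome were looked up in the same fits. The 26 such genes with a row were proteasome-bound and assembly factors, regulators of proteasome expression, ubiquitin shuttles with the unfoldase, and ubiquitin genes. Of these, 0 passed an adjusted p under 0.05 in limma with or without the block. At an unadjusted p under 0.05, 4 of 26 passed without the block (15.4%, compared to 17.5% of all genes) and 3 with it (11.5%, compared to 4.29%). Higher in Ppef2-/- among the 4 were the deubiquitinase Usp14 (log2 fold change 0.18), the ligase Ube3c (0.21) and the ubiquitin fusion gene Rps27a (0.07), and lower was the polyubiquitin gene Ubb (-0.13). Pomp, which matures the core, had a mean of 1091 normalized counts and a log2 fold change of 0.03. The ubiquitin receptor Adrm1 had 306 and 0.03, and Nfe2l1, which induces proteasome genes when the proteasome is inhibited, had 760 and -0.02. The median within-sort log2 difference of the 26 genes was 0.11 in sort 4 and 0.01 in sort 5.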

How the data were processed

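Libraries of spleen CD8+ DCs, 5 of Ppef2+/+ and 5 of Ppef2-/- mice, were compared. Reads of 50 bp were mapped by the authors to mm10, with HISAT according to the paper and TopHat2 2.0.3 according to the submitters' processing notes, and counted per RefSeq gene. The deposited signal values are DESeq2-normalized counts with a floor of 1. Genes with both genotype means under 10 had been left out, so markers without a row are not analysed here. The kit does not mark strand. All 10 columns were used and 0 were left out.

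The labels give the sort of each library, which pairs the genotypes. Deviations within a sort had r = -1.00 in the deposited values, because sort means had been taken off, and 0.322, 0.160, 0.268, 0.282 and 0.0392 in sorts 1 to 5 with the sort means put back. This step is not given in the sources used here. Whole reads were solved per gene from the spacing of the deposited values, which succeeded for 9580 genes with all values under 1000. With the values of sort 3 taken from another gene, 4 of 3862 genes with means under 100 normalized counts could be solved. Only 7 of the 46 proteasome genes have such means, and genes with higher means were not covered by this control.

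Genotypes were compared with limma 3.58.1 (R 4.3.3, eBayes with trend) on log2(value + 1). The p-values are two-sided, adjusted over 10767 genes after Benjamini and Hochberg. The study's model had no sort term, and the sort as a block was the alternative. Without the block, mirrored values understate the error. Single values were compared by two-sided exact permutation tests, whose smallest p is 0.00794 for 5 against 5 libraries and 0.0625 within sorts. Other alternatives were the pseudocount, a filter on the mean, the scaling, the trend, voom on whole reads, sort means put back, and libraries or sorts left out. Lengths are from GENCODE M21, upstream sequences from RefSeq (GRCm38.p6). The scripts were tested on simulated data.

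The members and lists were chosen with earlier results of these data known. Values per library are given for Psmb5 to Psmb7, Psme1 to Psme4, the highest and lowest gene of each group, the 5 smallest p in either fit and the 3 largest changes. Psmd14, Psma4 and Psmc6 as examples for sorts 4 and 5, and the pathway genes named by an unadjusted p, were chosen after their values were seen. Sequences of Psma8 and Psmg2 are not reported here.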

Additional observations from a re-analysis of the deposited data

How the results depend on the processing

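The count of 0 proteasome genes at an adjusted p under 0.05 was the same under each alternative that was run, namely other pseudocounts, a filter on the mean, other scalings, no trend, the sort as a replicate block, voom on reads, sort means put back, each library left out and each sort left out. Values of genes that were not called, and medians over genes, count as the same here, even where the sign changed. Of 749 values under the alternatives, 739 were counted as the same, 10 moved and 0 reversed a call. All 10 are counts at an unadjusted p under 0.05, which was 2 without the block. The count was 1 with the sort as a replicate block, 1 with voom and the block, and 0 with the sort means put back. Leaving out each library in turn gave 1 to 3, where a count of 3 was scored as the same. Without either library of sort 2 it was 1, and without both libraries of a sort, added after seeing the data, it was 4 (sorts 1, 3 and 5) or 5 (sorts 2 and 4). The block changed no other call. Among the 21 genes named by the rule, the log2 fold change had the other sign in 46 of 497 values, none of them a called gene, and the smallest adjusted p was 0.0551 (limma, Psmb3 without both libraries of sort 4). Over its alternatives the adjusted p of Psmb3 ran from 0.0551 to 1.00. The median log2 fold change of proteasome genes ran from -0.01 to 0.02 with each library left out. Genes with few reads, such as Psma8 with 1 to 22 reads per library, limit what can be resolved, and intervals from reads cover counting error only.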
